A study of Mus musculus with 2 samples.

Results

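The 35 genes described here encode the NF-κB signalling pathway of T cells and its feedback. They comprise 5 Rel subunits, 6 IκB proteins, 4 genes of the A20, ABIN and CYLD brakes, 7 cIAP ligases and TRAF adaptors, BCL10 and MALT1, 9 genes of the IKK complex and its kinases, and 2 surface targets. They were chosen by symbol from the 16830 genes of the table. RNA was sequenced from sorted CD4+CD25hiYFP+ regulatory T (Treg) cells of spleen and lymph nodes of C57BL/6 mice labelled as 6-month old. The USP21-ΔTreg cells came from mice with floxed *Usp21* alleles (USP21-floxp/floxp) that also carry Foxp3-YFP-Cre, and the WT Treg cells from Foxp3-YFP-Cre mice with no floxed allele named in their label. Both genotypes carry the Cre and YFP fusion at *Foxp3*, so the deletion is driven by the *Foxp3* locus, and the number of mice behind each library is not given in the sources used here. There was 1 library per genotype, so no difference could be tested, and every value describes these libraries alone.

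NF-κB factors are dimers of Rel proteins that IκB proteins hold in the cytoplasm. Signals from the T cell receptor, through BCL10 and MALT1, or from TNF family receptors, through TRAF adaptors, reach the IKK complex, which marks IκB proteins for degradation and lets the dimers enter the nucleus. A second, non-canonical branch runs through NIK and the processing of p100, the product of *Nfkb2*. Several inhibitors of the pathway are themselves targets of it and close a feedback loop. In Treg cells the pathway is known for its part in thymic development, through c-Rel, and in the maintenance of effector Treg cells.

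Expression is given as the deposited FPKM, by its name fragments scaled to transcript length and to the mapped total of the library. Ratios of FPKM between the libraries differ by gene from those of fragment numbers, for a cause that was not tested. Fold changes are log2 ratios, USP21-ΔTreg over WT Treg, after 0.1 was added to each FPKM, so that those of genes with low values are understated. A gene was kept at a mean of at least 1 FPKM over both libraries, as 10948 genes were, and called at a ratio of at least 2. All 35 NF-κB genes were kept, with 375 or more fragments in each library, so counting error was small. The intervals given are 95% Clopper-Pearson intervals of the ratio of scaled counts, a second scale deposited by the authors. They cover counting error only, and hold nothing of the variation between mice.

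*Usp21*, the deleted gene, had 4.56 FPKM in USP21-ΔTreg cells, against 11.8 FPKM in WT Treg cells, a value over the whole gene and not over the floxed exons. Genes took 23418575 fragments in the USP21-ΔTreg library and 23198412 in the WT library. Of 5 Treg markers, 2 were lower by at least 2-fold, *Il2ra* and *Tnfrsf18*, and none was higher, with a summed level of 1145 FPKM in USP21-ΔTreg cells and 1796 FPKM in WT Treg cells. *Foxp3* stood at 55.2 FPKM in USP21-ΔTreg cells and 91.8 FPKM in WT Treg cells, while *Ctla4* and *Ikzf2* had log2 fold changes of 0.04 and 0.24 on FPKM. On scaled counts *Ctla4* and *Ikzf2* had −0.34 and −0.23, so their sign turned with the scale. None of 4 kept T cell markers was 2-fold apart, with a sum of 1032 FPKM in USP21-ΔTreg cells and 914 FPKM in WT Treg cells. *Il2ra*, which encodes CD25, the protein both sorts gated on, stood at 19.3 FPKM in USP21-ΔTreg cells and 168 FPKM in WT Treg cells, so its RNA was far lower in cells sorted as CD25hi. Of other cell types, the summed level of 5 B cell markers was 25.6 FPKM in USP21-ΔTreg cells and 10.2 FPKM in WT Treg cells, with 4 of 4 kept markers at least 2-fold higher and none at 0. The 8 myeloid and dendritic markers summed to 14.0 and 6.29 FPKM, with 2 of 2 kept markers higher, and the 7 NK and CD8 T cell markers to 59.1 and 22.1 FPKM, with 2 of 5 higher, USP21-ΔTreg cells first in both. The erythroid markers summed to 95.3 FPKM in USP21-ΔTreg cells and 33.8 FPKM in WT Treg cells. Of 5 kept erythroid markers 3 were higher and 2 lower. The lower ones had 1 and 8 fragments in USP21-ΔTreg cells, against 24 and 48 in WT Treg cells. The only kept stromal marker differed by less than 2-fold. Whether the RNA of these markers came from other cells or from the sorted Treg cells themselves was not tested. Nor was the part of other cells in the values that follow. In such bulk RNA, fewer cells of a type and less RNA per cell cannot be told apart.

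Relative to WT Treg cells, 7 of the 35 genes were lower by at least 2-fold (20%, against 6.20% of the 10948 genes kept), namely *Map3k8*, *Bcl3*, *Icam1*, *Nfkbia*, *Nfkb2*, *Cd83* and *Nfkbiz*. Another 2 were higher by at least 2-fold, *Tnfaip3* and *Malt1* (5.71%, against 7.78% of genes kept), and 26 lay between. On scaled counts 8 genes were lower (22.9%, against 7.93%) and 1 was higher (2.86%, against 4.34%). There *Traf6* joined the lower genes and *Malt1* fell short of 2-fold. *Map3k8* and *Cd83* were drawn by the study in a heat map of genes that differ between these libraries, so their direction was known. Without them 5 of 33 genes were lower by at least 2-fold, beside the 6.20% of genes kept. With a minimum mean of 5 FPKM, which 34 of the 35 genes passed, the same 9 genes were 2-fold apart, against a background of 6.06% lower and 5.28% higher. The members were picked for their role in a pathway with well-known inducible genes, and nothing particular to the list is read from these shares.

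The median log2 fold change of the 35 genes was −0.13, beside 0.20 over all genes kept. On scaled counts the medians were −0.21 and −0.01. A log2 fold change below 0 was found for 22 of the 35 genes on FPKM and 26 on scaled counts, where 36.6% and 50.6% of genes kept lay below 0. Of the 35 intervals, 20 lay below 1, 6 above 1 and 9 held 1. The same count was not made over all genes kept, so nothing particular to the list is read from it. All Rel and IκB genes and both surface targets lay below 0 on either scale, whereas the cIAP, TRAF and IKK genes lay on both sides of 0.

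**Figure D1:**
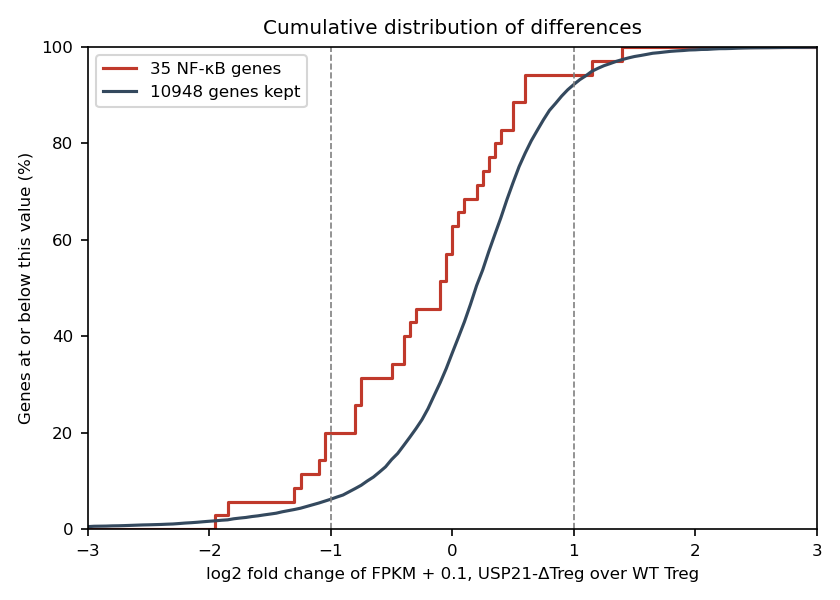
Cumulative share of genes (y axis, percent) by log2 fold change of FPKM + 0.1, USP21-ΔTreg over WT Treg (x axis), for the 35 NF-κB genes and the 10948 genes kept, with dashed lines at 2-fold. The curve of the NF-κB genes runs to the left of that of all genes through most of its range, with 20% against 6.20% of genes at or below −1.

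Stretches before RefSeq transcription starts are shown for genes on which the results turn and that hold the degenerate 10-base κB consensus, the site that NF-κB dimers bind. For *Nfkbia* and *Tnfaip3*, which differed in opposite directions, this shows a match in both, and *Nfkbie*, another IκB gene, and *Tnip1*, which encodes a partner of A20, both less than 2-fold apart, are set beside them. Sequences are from RefSeq on GRCm38.p6, the assembly of mm10, read 5′ to 3′ on the strand of the gene, with matches on either strand in capitals. Where an annotated exon of the gene overlapped the stretch, 30 bases around 1 match were kept. The RefSeq starts used for *Tnfaip3* and *Nfkb2* lie inside the span that GENCODE gives these genes, so both stretches fall within the annotated gene and precede an internal start. *Nfkb2* has several RefSeq starts.
Nfkbia, at least 2-fold lower, chr12:55492648-55492747, minus strand: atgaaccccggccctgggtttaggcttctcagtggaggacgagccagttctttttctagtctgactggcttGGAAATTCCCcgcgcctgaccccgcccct
Nfkb2, at least 2-fold lower, chr19:46304688-46304717, plus strand: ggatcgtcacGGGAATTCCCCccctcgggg
Tnfaip3, at least 2-fold higher, chr10:19015516-19015545, minus strand: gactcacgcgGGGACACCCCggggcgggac
Nfkbie, less than 2-fold apart, chr17:45555549-45555648, plus strand: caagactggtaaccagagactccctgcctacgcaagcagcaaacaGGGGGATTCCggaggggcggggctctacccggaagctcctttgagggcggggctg
Tnip1, less than 2-fold apart, chr11:54962943-54963042, minus strand: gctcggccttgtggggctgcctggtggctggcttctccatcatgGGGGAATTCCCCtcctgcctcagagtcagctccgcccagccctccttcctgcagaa

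The consensus was searched on both strands in the 250 bases before each start, with overlapping matches joined into 1 place. RefSeq gave promoters of 28 of the 35 genes. The genes without a promoter entry, which were therefore not searched, were *Nfkb1*, *Relb*, *Nfkbiz*, *Malt1*, *Ikbkb*, *Map3k8* and *Cd83*. A match stood in the promoters of 11 of the 28 (39.3%), against 918 of 8711 genes kept (10.5%) and 8.23% of all 27025 genes in the promoter table. A gene with several starts counted as matched if any of them had a match. The members were picked as genes of the pathway and its feedback, several of them known targets. The share is therefore a description, and nothing particular to the list is read from it. Of the genes at least 2-fold apart 3 of 5 had a match, *Nfkbia*, *Nfkb2* and *Tnfaip3*, and *Bcl3* and *Icam1* had none in this window. Of the genes less than 2-fold apart 8 of 23 had one, *Rel*, *Nfkbid*, *Nfkbie*, *Tnip1*, *Cyld*, *Traf3*, *Bcl10* and *Map3k7*. The match in *Nfkbia* began 29 bases before its RefSeq start, and those in *Tnfaip3* 125 and 12 bases before its internal RefSeq start. A match is a description of the letters and not a site in use, and matches stood before genes that were lower, higher and less than 2-fold apart.

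The Rel subunits were lower or nearly level, and *Nfkb2* was the member that passed 2-fold (6.20% of all genes kept were lower by 2-fold). *Nfkb2*, which encodes p100, the precursor of p52 in the non-canonical branch, stood at 51.6 FPKM in USP21-ΔTreg cells, against 114 FPKM in WT Treg cells. Its log2 fold change was −1.15, and the ratio of scaled counts 0.463 (interval 0.445 to 0.482). *Nfkb2* (Entrez 18034) lies on chromosome 19 of mm10 from 46304320 to 46312385, plus strand. An antisense long noncoding RNA gene overlaps 11.6% of its annotated exonic bases.

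*Relb*, the usual partner of p52, stood at 23.5 FPKM in USP21-ΔTreg cells and 41.2 FPKM in WT Treg cells (log2 fold change −0.81). *Nfkb1*, which encodes p105, the precursor of p50, stood at 99.0 FPKM in USP21-ΔTreg cells and 134 FPKM in WT Treg cells (−0.43). These differences are short of 2-fold, with intervals of the count ratio that lie below 1. *Rel*, which encodes c-Rel, stood at 16.7 FPKM in USP21-ΔTreg cells and 22.4 FPKM in WT Treg cells, with a log2 fold change of −0.42 on FPKM and −0.80 on scaled counts.

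*Rela*, which encodes p65, the main activating subunit of the canonical dimer, stood at 38.1 FPKM in USP21-ΔTreg cells and 39.8 FPKM in WT Treg cells. Its count ratio was 0.969, with an interval of 0.912 to 1.03 that holds 1. The level of *Relb* was thus 0.616 of that of *Rela* in USP21-ΔTreg cells and 1.04 of it in WT Treg cells, both on FPKM. *Nfkb2* stood at 0.521 of the level of *Nfkb1* in USP21-ΔTreg cells and 0.854 of it in WT Treg cells. These FPKM ratios leave out *Rel*, which on scaled counts had a lower log2 fold change (−0.80) than *Relb* (−0.73).

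All 6 IκB genes had a lower level in USP21-ΔTreg cells, and 3 of them, *Bcl3*, *Nfkbia* and *Nfkbiz*, passed 2-fold (among all genes kept 6.20% were lower by 2-fold and 36.6% lay below 0). The summed level of the group was 257 FPKM in USP21-ΔTreg cells and 595 FPKM in WT Treg cells. All 6 intervals of the count ratio lay below 1, a count not made over all genes kept, and the median log2 fold change of the group was −0.92.

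*Nfkbia* encodes IκBα, the inhibitor that is degraded and made anew in the canonical feedback loop. It stood at 160 FPKM in USP21-ΔTreg cells, against 393 FPKM in WT Treg cells, where it was the highest of the 35 genes. The log2 fold change was −1.30 and the count ratio 0.367 (interval 0.356 to 0.379), from 5968 fragments in the USP21-ΔTreg library and 14484 in the WT library. Of the 10948 genes kept, 446 had a lower fold change. *Nfkbia* (Entrez 18035) lies on chromosome 12 of mm10 from 55489410 to 55492647, minus strand.

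*Bcl3* encodes a nuclear IκB protein that binds p50 and p52 dimers on DNA. It stood at 14.9 FPKM in USP21-ΔTreg cells, against 54.2 FPKM in WT Treg cells, with a log2 fold change of −1.86. This was the largest difference among the IκB genes, with 209 genes kept lower still, and the count ratio was 0.295 (interval 0.266 to 0.328). *Bcl3* (Entrez 12051) lies on chromosome 7 from 19808462 to 19822770, minus strand, and an antisense gene overlaps 6.51% of its exonic bases. In level it ranked 29 of the 35 genes in USP21-ΔTreg cells, against 11 in WT Treg cells.

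*Nfkbiz* encodes IκBζ, another nuclear IκB protein that is induced by signalling. It stood at 38.9 FPKM in USP21-ΔTreg cells and 81.0 FPKM in WT Treg cells. Its log2 fold change of −1.05 was the value closest to the 2-fold limit among the lower genes, and on scaled counts it was −1.33. *Nfkbiz* (Entrez 80859) lies on chromosome 16 from 55811375 to 55838899, minus strand.

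The other 3 IκB genes were less than 2-fold lower. *Nfkbib*, which encodes IκBβ, stood at 11.9 FPKM in USP21-ΔTreg cells and 20.5 FPKM in WT Treg cells (log2 fold change −0.79). *Ccer2*, on the opposite strand, overlaps 14.5% of the exonic bases of *Nfkbib*. *Nfkbid*, which encodes IκBNS, a nuclear IκB protein with a known part in *Foxp3* induction in mice, stood at 14.7 FPKM in USP21-ΔTreg cells and 24.8 FPKM in WT Treg cells (−0.76). *Nfkbie*, which encodes IκBε, was closest to level at 16.9 FPKM in USP21-ΔTreg cells and 21.4 FPKM in WT Treg cells (−0.34).

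Among the brakes that act on ubiquitin chains, *Tnfaip3* was higher in USP21-ΔTreg cells, opposite to the IκB genes. *Tnfaip3* encodes A20, a ubiquitin-editing enzyme that ends signalling upstream of IKK and that is known as a target of NF-κB. It stood at 247 FPKM in USP21-ΔTreg cells, against 95.7 FPKM in WT Treg cells. The log2 fold change was 1.36 on FPKM and 1.15 on scaled counts, with a count ratio of 2.22 (interval 2.17 to 2.27), and 312 of the genes kept had a higher fold change. *Tnfaip3* (Entrez 21929) lies on chromosome 10 from 19000910 to 19015657, minus strand.

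With this, *Tnfaip3* was the highest of the 35 genes in USP21-ΔTreg cells and ranked 4 in WT Treg cells. The FPKM of *Tnfaip3* was 1.54 times that of *Nfkbia* in USP21-ΔTreg cells and 0.243 times that of *Nfkbia* in WT Treg cells. These feedback inhibitors, both known targets of the pathway, thus stood in opposite order in the libraries.

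The partners of A20 were not 2-fold apart, and neither were most of the genes kept. *Tnip1*, which encodes ABIN-1, an adaptor that brings A20 to its substrates, stood at 46.9 FPKM in USP21-ΔTreg cells and 49.5 FPKM in WT Treg cells. Its count ratio of 0.966 had an interval of 0.923 to 1.01, which holds 1. *Tnip2*, which encodes ABIN-2, stood at 8.86 FPKM in USP21-ΔTreg cells and 11.7 FPKM in WT Treg cells (log2 fold change −0.39). *Cyld*, which encodes a deubiquitinase of the same signalling complexes, stood at 47.4 FPKM in USP21-ΔTreg cells and 33.9 FPKM in WT Treg cells. This was a log2 fold change of 0.48 on FPKM and 0.07 on scaled counts.

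**Figure D2:**
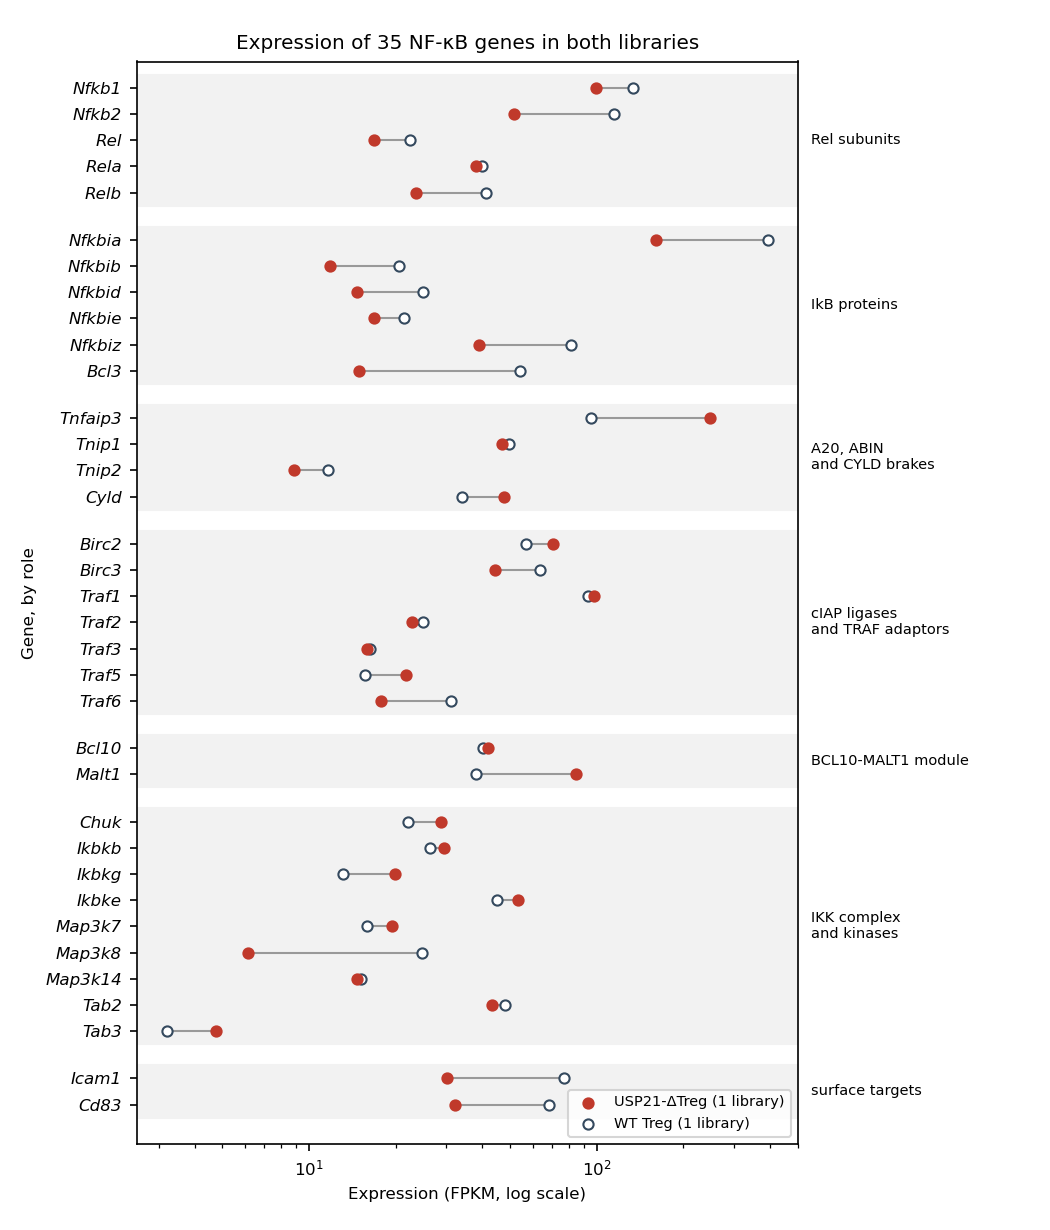
FPKM (x axis, log scale) of each of the 35 genes in USP21-ΔTreg cells (filled) and WT Treg cells (open), 1 library each, with a line joining both values and genes grouped by role. *Tnfaip3* stands at 247 and 95.7 FPKM and *Nfkbia* at 160 and 393 FPKM, USP21-ΔTreg cells first.

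BCL10 and MALT1 link the T cell receptor to IKK, and MALT1 is also a protease. *Malt1* stood at 84.5 FPKM in USP21-ΔTreg cells, against 38.0 FPKM in WT Treg cells, a log2 fold change of 1.15. On scaled counts it was 0.75, with a count ratio of 1.68 (interval 1.63 to 1.74), so that the 2-fold call of *Malt1* held on FPKM and not on counts. *Malt1* (Entrez 240354) lies on chromosome 18 from 65430938 to 65479067, plus strand. *Bcl10* stood at 41.7 FPKM in USP21-ΔTreg cells and 40.4 FPKM in WT Treg cells, with a log2 fold change of 0.05 on FPKM, −0.15 on scaled counts and a sign that depends on the scale. The FPKM of *Malt1* was 2.02 times that of *Bcl10* in USP21-ΔTreg cells and 0.943 times that of *Bcl10* in WT Treg cells.

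No subunit of the IKK complex was 2-fold apart on either scale. Of all genes kept only 6.20% were lower and 7.78% higher by 2-fold on FPKM, so nothing particular to the complex is read from this. *Chuk*, which encodes IKKα, stood at 28.7 FPKM in USP21-ΔTreg cells and 22.0 FPKM in WT Treg cells, with a count ratio of 0.954 (interval 0.898 to 1.01). *Ikbkb*, which encodes IKKβ, the catalytic subunit of the canonical branch, stood at 29.5 FPKM in USP21-ΔTreg cells and 26.3 FPKM in WT Treg cells, with a count ratio of 1.02 (0.970 to 1.08). Both intervals hold 1, and the FPKM difference of *Chuk* turned round on counts.

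*Ikbkg*, which encodes NEMO, the regulatory subunit, stood at 19.8 FPKM in USP21-ΔTreg cells and 13.2 FPKM in WT Treg cells. Its log2 fold change of 0.59 was the highest of this group, and its count ratio was 1.21 (interval 1.14 to 1.28). *G6pdx*, on the opposite strand, overlaps 5.15% of its exonic bases. *Ikbke*, which encodes IKKε, a related kinase outside the complex, stood at 53.3 FPKM in USP21-ΔTreg cells and 45.1 FPKM in WT Treg cells (0.24).

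Of the kinases upstream of and beside IKK, *Map3k8* stood apart. *Map3k8* encodes TPL2, a kinase that is bound by p105 and links IKK to ERK signalling. It stood at 6.13 FPKM in USP21-ΔTreg cells, against 24.6 FPKM in WT Treg cells, or 375 and 1656 fragments in that order. The log2 fold change of −1.99 was the lowest of the 35 genes, 180 of the genes kept were lower, and the count ratio was 0.202 (interval 0.180 to 0.226). *Map3k8* (Entrez 26410) lies on chromosome 18 from 4331327 to 4353015, minus strand.

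*Map3k7*, which encodes TAK1, the kinase that activates IKKβ, stood at 19.4 FPKM in USP21-ΔTreg cells and 15.9 FPKM in WT Treg cells, with a count ratio of 0.949 (interval 0.897 to 1.00). Its adaptors *Tab2* and *Tab3*, which bind ubiquitin chains, had log2 fold changes of −0.15 and 0.55 on FPKM, and −0.49 and 0.10 on scaled counts. *Tab3* was the lowest of the 35 genes in level, at 4.73 FPKM in USP21-ΔTreg cells and 3.20 FPKM in WT Treg cells. *Map3k14*, which encodes NIK, the kinase of the non-canonical branch, stood at 14.7 FPKM in USP21-ΔTreg cells and 15.2 FPKM in WT Treg cells (count ratio 0.970, interval 0.904 to 1.04). NIK is controlled mainly by degradation of its protein, which RNA does not measure.

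None of the 7 cIAP ligases and TRAF adaptors was 2-fold apart on FPKM, and on scaled counts *Traf6* was. Among all genes kept 6.20% were lower and 7.78% higher on FPKM, and 7.93% and 4.34% on scaled counts. A list this short cannot be set against these shares. *Traf6*, which encodes the ligase downstream of IL-1 and Toll-like receptors, stood at 17.7 FPKM in USP21-ΔTreg cells and 31.2 FPKM in WT Treg cells. Its log2 fold change was −0.81 on FPKM, beside that of *Relb* the value just outside the limit, and −1.15 on scaled counts (count ratio 0.451, interval 0.427 to 0.475).

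*Birc3* and *Birc2* encode cIAP2 and cIAP1, ligases that act with TRAF2 and TRAF3 and keep NIK low. *Birc3*, which is known as a target of NF-κB, stood at 44.4 FPKM in USP21-ΔTreg cells and 63.3 FPKM in WT Treg cells (log2 fold change −0.51, count ratio 0.613). *Birc2*, its neighbour on chromosome 9, stood at 70.6 FPKM in USP21-ΔTreg cells and 56.8 FPKM in WT Treg cells, a log2 fold change of 0.31 on FPKM and −0.03 on scaled counts. The FPKM of *Birc2* was 1.59 times that of *Birc3* in USP21-ΔTreg cells and 0.897 times that of *Birc3* in WT Treg cells.

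*Traf1*, an adaptor that is also induced by NF-κB, stood at 98.0 FPKM in USP21-ΔTreg cells and 93.2 FPKM in WT Treg cells, with a count ratio of 1.02 (interval 0.979 to 1.05). *Traf2* stood at 22.8 FPKM in USP21-ΔTreg cells and 24.9 FPKM in WT Treg cells, and *Traf3*, which restrains NIK, at 15.9 and 16.3 FPKM in the same order. Their log2 fold changes were −0.13 and −0.04. *Traf5*, an adaptor of co-stimulatory TNF receptors, stood at 21.8 FPKM in USP21-ΔTreg cells and 15.6 FPKM in WT Treg cells, with a log2 fold change of 0.47 and a count ratio of 1.37 (1.25 to 1.51). On scaled counts *Traf5* was thus higher, and *Traf2*, *Traf3* and *Traf6* lower, by more than counting error, while the interval of *Traf1* held 1.

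Both surface molecules, which T cells raise on activation, were at least 2-fold lower, as were 6.20% of all genes kept. They are too few to set against that share. *Icam1*, the ligand of the integrin LFA-1 and a known NF-κB target, stood at 30.2 FPKM in USP21-ΔTreg cells, against 76.9 FPKM in WT Treg cells. Its log2 fold change was −1.34 and its count ratio 0.380 (interval 0.360 to 0.402). *Icam1* (Entrez 15894) lies on chromosome 9 from 21015985 to 21028817, plus strand, and an antisense gene overlaps 11.7% of its exonic bases.

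*Cd83*, a surface protein of activated lymphocytes and dendritic cells, stood at 32.2 FPKM in USP21-ΔTreg cells, against 68.0 FPKM in WT Treg cells. The log2 fold change was −1.07 on FPKM and −1.32 on scaled counts (count ratio 0.401, interval 0.377 to 0.426). *Cd83* (Entrez 12522) lies on chromosome 13 from 43784775 to 43803132, plus strand. B cells and dendritic cells can also express both genes, and the part of those cells, whose marker levels are given above, was not tested.

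**Figure D3:**
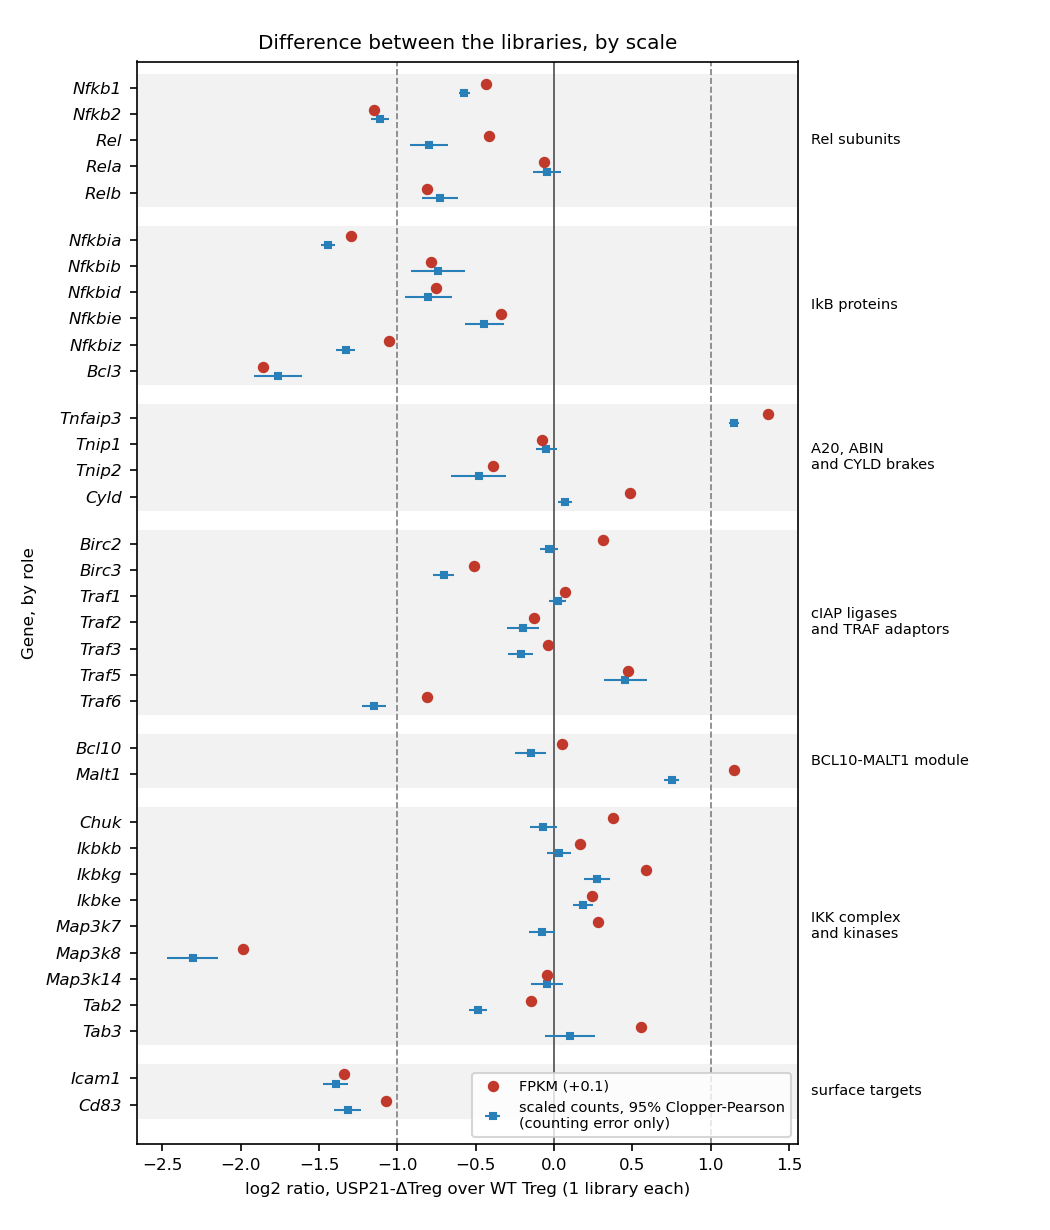
Log2 ratio of USP21-ΔTreg over WT Treg cells (x axis, 1 library each) for the 35 genes by role, on FPKM + 0.1 (circles) and on scaled counts (squares, bars are 95% Clopper-Pearson intervals for counting error only), with dashed lines at 2-fold. The Rel, IκB and surface target genes lie left of 0 on both scales, *Tnfaip3* (1.36 and 1.15) lies to the right, and *Malt1* passes 2-fold on FPKM alone (1.15 and 0.75).

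Other genes of the pathway were taken from 5 further lists that share no gene with the 35. These lists were written with earlier results of these data known. Of 17 upstream receptors and adaptors, 1 was at least 2-fold lower (5.88%, near the 6.20% of all genes kept) and none higher, with a median log2 fold change of −0.05 on FPKM and −0.27 on scaled counts. The lower gene was *Traf4*, at 7.83 FPKM in USP21-ΔTreg cells and 27.7 FPKM in WT Treg cells (log2 fold change −1.81). None of 5 kept genes of the linear ubiquitin module or of 3 of the TBK1 module was 2-fold apart, in lists too short to set against the shares over all genes. Their medians were −0.10 and 0.32 on FPKM, and −0.17 and −0.13 on scaled counts, so that the sign of the TBK1 module turned with the scale.

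Of 14 kept nuclear and other inhibitors, 1 was lower (7.14%, near the 6.20% of all genes kept) and none higher. The median was 0.23 on FPKM and 0.00 on scaled counts. It was *Nlrc5*, best known as the transactivator of MHC class I genes, at 65.4 FPKM in USP21-ΔTreg cells and 134 FPKM in WT Treg cells (−1.03).

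Of 24 kept targets of NF-κB beyond the 35 genes, 12 were lower in USP21-ΔTreg cells by at least 2-fold (50%, against the 6.20% of genes kept given above) and none was higher, with a median of −1.03. On scaled counts 13 were lower (against 7.93% of genes kept), with a median of −1.07. The lowest were *Lta*, which encodes lymphotoxin α (7.22 FPKM in USP21-ΔTreg cells and 130 FPKM in WT Treg cells), the chemokine gene *Cxcl10* (15.7 and 136 FPKM in the same order) and *Tnf* (7.98 and 50.7 FPKM in the same order). Members of this list, *Cxcl10* and *Irf1* for example, are also induced by interferon or cytokine receptors, and *Bcl2l1* was drawn in the heat map of the study, so the list does not measure NF-κB activity by itself. Because the list was written with earlier results of these data known, its share is a description and not independent support. Among the targets not 2-fold apart, the anti-apoptotic genes *Bcl2a1a*, *Bcl2a1b* and *Bcl2a1d*, named after their values were seen, had log2 fold changes of 0.93, 0.70 and 0.52 on FPKM. On scaled counts the values were 0.57, 0.35 and 0.15 in the same order, and the interval of *Bcl2a1d* (0.976 to 1.27) held 1. These genes are near-identical copies whose reads cannot be told apart with certainty. Other targets less than 2-fold apart were lower in USP21-ΔTreg cells, so the *Bcl2a1* genes do not stand for that group.

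**Figure D4:**
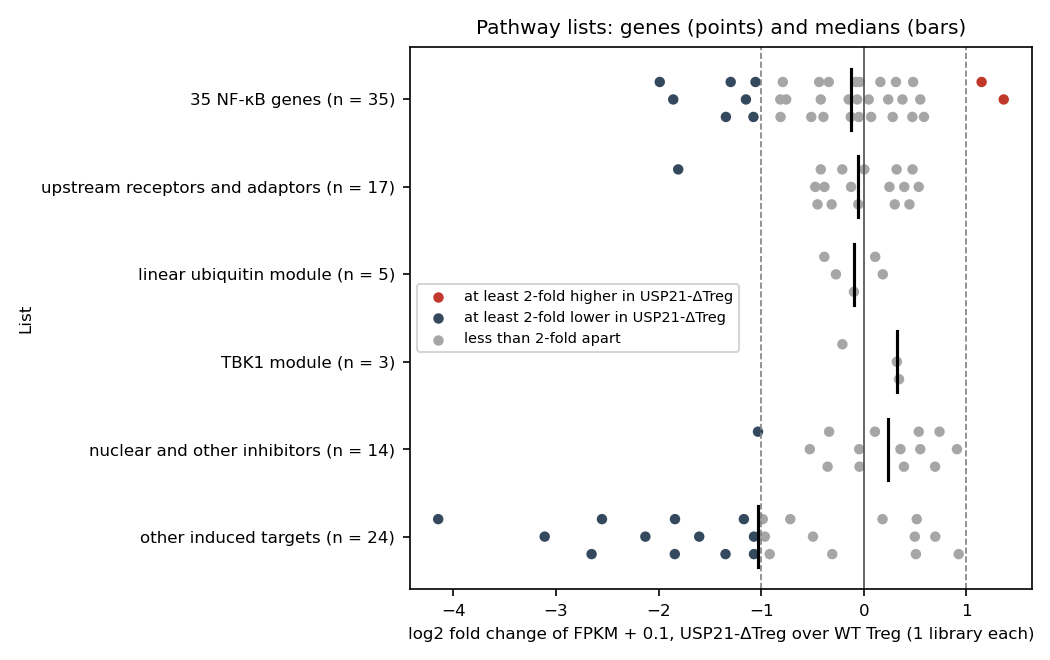
Log2 fold change of FPKM + 0.1, USP21-ΔTreg over WT Treg cells (x axis, 1 library each), for each kept gene (points) of the 35 NF-κB genes and of 5 further pathway lists (rows), with bars at the medians and dashed lines at 2-fold. The induced targets have a median of −1.03 with 12 of 24 genes lower, while the medians of the other pathway lists lie between −0.10 and 0.32 on FPKM, and between −0.27 and 0.00 on scaled counts, which are not drawn. The lists were written with earlier results of these data known.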

How the data were processed

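1 RNA-seq library each was made from CD4+CD25hiYFP+ cells of the USP21-ΔTreg and WT genotypes. The authors discarded reads of ribosomal RNA, adaptors and poor quality, aligned what was left by TopHat 2.0.9 (mm10), and quantified it against known transcripts by Cufflinks 2.1.1. Their deposited FPKM values served as the main scale. The deposited estimated counts are scaled between libraries. Taking the commonest value above 0 as 1 fragment, 97.2% of all values above 0 came out whole within 0.02, in either library. The methods describe RNeasy RNA and stranded total RNA libraries, the sample labels Trizol RNA and the TruSeq RNA kit, and the strand setting of the counting is not given in the sources used here.

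Fold changes and intervals came from scipy 1.17.1, numpy 2.4.6 and pandas 2.3.3 under Python 3.11.15, figures from matplotlib 3.10.9, and steps were tested on simulated data. The pseudocount was 0.1 FPKM, the minimum mean 1 FPKM and the limit 2-fold. GENCODE M21 on mm10 gave coordinates and exon overlaps. The genes and lists were chosen with earlier results of these data known. Named were all 35 genes, *Usp21*, *Foxp3* and *Il2ra* as checks, and up to 3 genes at least 2-fold apart per further list. *Tnfrsf18*, *Ctla4*, *Ikzf2*, *Irf1*, *Bcl2l1*, *Bcl2a1a*, *Bcl2a1b* and *Bcl2a1d* were added after their values were seen. Alternatives changed the pseudocount, filter, scaling and limit.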

Additional observations from a re-analysis of the deposited data

How the results depend on the processing

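No paired analysis was possible because there was a single library per genotype. The 9 genes called among the 35 kept their sign under each alternative run. The pseudocount (1 or 0.01 FPKM), the filter (none, or a mean of at least 5 FPKM) and upper quartile scaling left 7 genes lower and 2 higher. Median centring gave 9 lower and 1 higher, with a median of −0.32, since *Relb* and *Traf6* passed the limit and *Malt1* did not. Scaled counts gave 8 lower and 1 higher, with a median of −0.21. At 1.5-fold 14 genes were apart, 11 lower and 3 higher, and at 3-fold 2 were apart, 2 lower and 0 higher. Signs of genes less than 2-fold apart turned with the scale. They did so for *Traf1*, *Bcl10* and *Ikbkb* when centred, for *Bcl10* after upper quartile scaling, and for *Birc2*, *Bcl10*, *Chuk* and *Map3k7* on scaled counts. Over all 10948 genes kept, 852 were higher and 679 lower. In the same order the numbers were 475 and 868 on scaled counts, 488 and 913 when centred, and 718 and 739 after upper quartile scaling. They were 482 and 573 with 1 FPKM added, and 904 and 695 with 0.01 FPKM added. At a mean of at least 5 FPKM they were 447 and 513 of 8463 genes, and without a filter 1460 and 1011 of 16830 genes. At 1.5-fold they were 2506 and 1326, and at 3-fold 178 and 312, of 10948 genes. Depth limited none of the 35 genes, as each had at least 375 fragments, and the missing replicate is the limit.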

Other observations

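The scales differed by gene. Of the 35 genes, 28 had a lower log2 fold change on scaled counts than on FPKM. The gap was −0.45 for *Tab3*, −0.45 for *Chuk*, −0.41 for *Cyld* and −0.40 for *Malt1*, while that of *Bcl3* was 0.10 and that of *Relb* 0.08. The cause of these gaps was not tested, and the calls of *Malt1* and *Traf6* rest on the scale chosen.

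In level, *Malt1* ranked 5 of the 35 genes in USP21-ΔTreg cells, against 18 in WT Treg cells, and *Map3k8* ranked 34 in USP21-ΔTreg cells, against 24 in WT Treg cells. Among all 10948 genes kept, *Tnfaip3* ranked 242 in USP21-ΔTreg cells, against 742 in WT Treg cells, and *Nfkbia* 380 in USP21-ΔTreg cells, against 172 in WT Treg cells.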
